A study of Mus musculus with 5 samples.

Results

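Expression of 10 genes for chemokines and leukocyte adhesion molecules was measured by RNA-seq in 5 mouse liver libraries. The genes were 4 CC chemokines (Ccl2, Ccl5, Ccl6 and Ccl9), 4 CXC chemokines (Cxcl1, Cxcl9, Cxcl10 and Cxcl12) and the adhesion molecules Icam1 and Vcam1. They were picked by symbol, and each of the 10 symbols had 1 of the 33589 rows of the deposited table. Of the 5 livers, 3 came from Lyve1-Cre;Hegfl/fl mice (knockouts), in which floxed Heg1 is combined with a Cre driven by Lyve1, and 2 from Hegfl/fl mice (controls), which carry the floxed gene and no Cre. Both groups were labelled as male, 6 weeks old and kept on a high-fat diet over 4 weeks, so no liver on another diet and no Cre carrier with an intact Heg1 entered the comparison. Lyve1 is active in lymphatic and liver sinusoidal endothelial cells, a minority of the cells in a liver. The series title names hepatocytes and the labels give liver, so the values are read as whole tissue, where fewer cells of a type and less RNA per cell cannot be told apart.

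Chemokines are small secreted proteins that guide leukocytes along gradients towards cells that carry the matching receptor. ICAM1 and VCAM1 are displayed by endothelial cells and bind leukocyte integrins, which lets a rolling leukocyte stop on the vessel wall before it crosses. In the liver these proteins come from endothelial cells, Kupffer cells (the resident macrophages), stellate cells and hepatocytes, and several of the genes are induced through NF-κB or through interferon-γ.

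The CC and CXC classes are named after the spacing of the first cysteines in the mature protein, which can be read in the coding sequence. The stretches below, shown because this spacing separates the 2 families described here, are 36 coding bases from GENCODE M21 transcripts on GRCm38 with the codons of those cysteines in capitals. In Ccl6 and Ccl9 the codons are adjacent, and in the CXC genes 1 codon lies between them.
Ccl6, chr11:83589368-83589403, minus strand: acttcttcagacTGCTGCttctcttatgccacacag
Ccl9, chr11:83575908-83575943, minus strand: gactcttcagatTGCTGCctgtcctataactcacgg
Cxcl1, chr5:90891484-90891519, plus strand: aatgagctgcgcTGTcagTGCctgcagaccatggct
Cxcl9, chr5:92326827-92326862, minus strand: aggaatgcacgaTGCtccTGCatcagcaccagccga
Cxcl10, chr5:92348166-92348201, minus strand: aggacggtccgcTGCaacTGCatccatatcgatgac
Cxcl12, chr6:117171496-117171531, plus strand: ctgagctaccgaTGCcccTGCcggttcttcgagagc

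The targeted gene, Heg1, had 0.45, 0.43 and 0.50 FPKM in the knockout livers and 0.48 and 0.35 FPKM in the control livers. FPKM are fragment counts divided by transcript length and by the library's total. The groups overlapped, and a whole-gene value from whole liver is a weak check on a deletion in a minority of cells. The tissue label was checked against hepatocyte markers, of which 9 had a row, and they summed to between 68990 and 84293 FPKM in knockouts and between 80148 and 85868 FPKM in controls. Between 10614 and 10945 genes reached 1 FPKM in a library. Control 1 had the lowest value of the 5 livers in 3040 of the 10820 genes tested (28.1%), more often than any other liver.

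For none of the 10 genes did the difference between knockout and control livers pass the test against the spread between livers. With limma on log2(FPKM + 1) and Benjamini-Hochberg adjustment over all genes, 0 of the 10 had an adjusted p under 0.05, and 0% of the 10820 genes tested did. At an unadjusted p under 0.05 there were also 0 of the 10, beside 757 of all genes (7%). The 10 genes were nevertheless not alike in level, which ran from about 1 FPKM for Ccl2 to over 100 FPKM for Cxcl12, nor in how far the livers spread. Over the 5 livers the mean level per length ran, from high to low, from Cxcl12 (109.9 FPKM) over Ccl9 (35.1), Ccl6 (9.40), Cxcl1 (8.85), Cxcl9 (6.41), Vcam1 (5.29), Cxcl10 (5.19) and Icam1 (4.76) to Ccl5 (1.95) and Ccl2 (0.956). From Ccl6 down to Icam1 the values of neighbours in this order overlapped between livers. The plot of FPKM by liver shows each value.

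**Figure D1:**
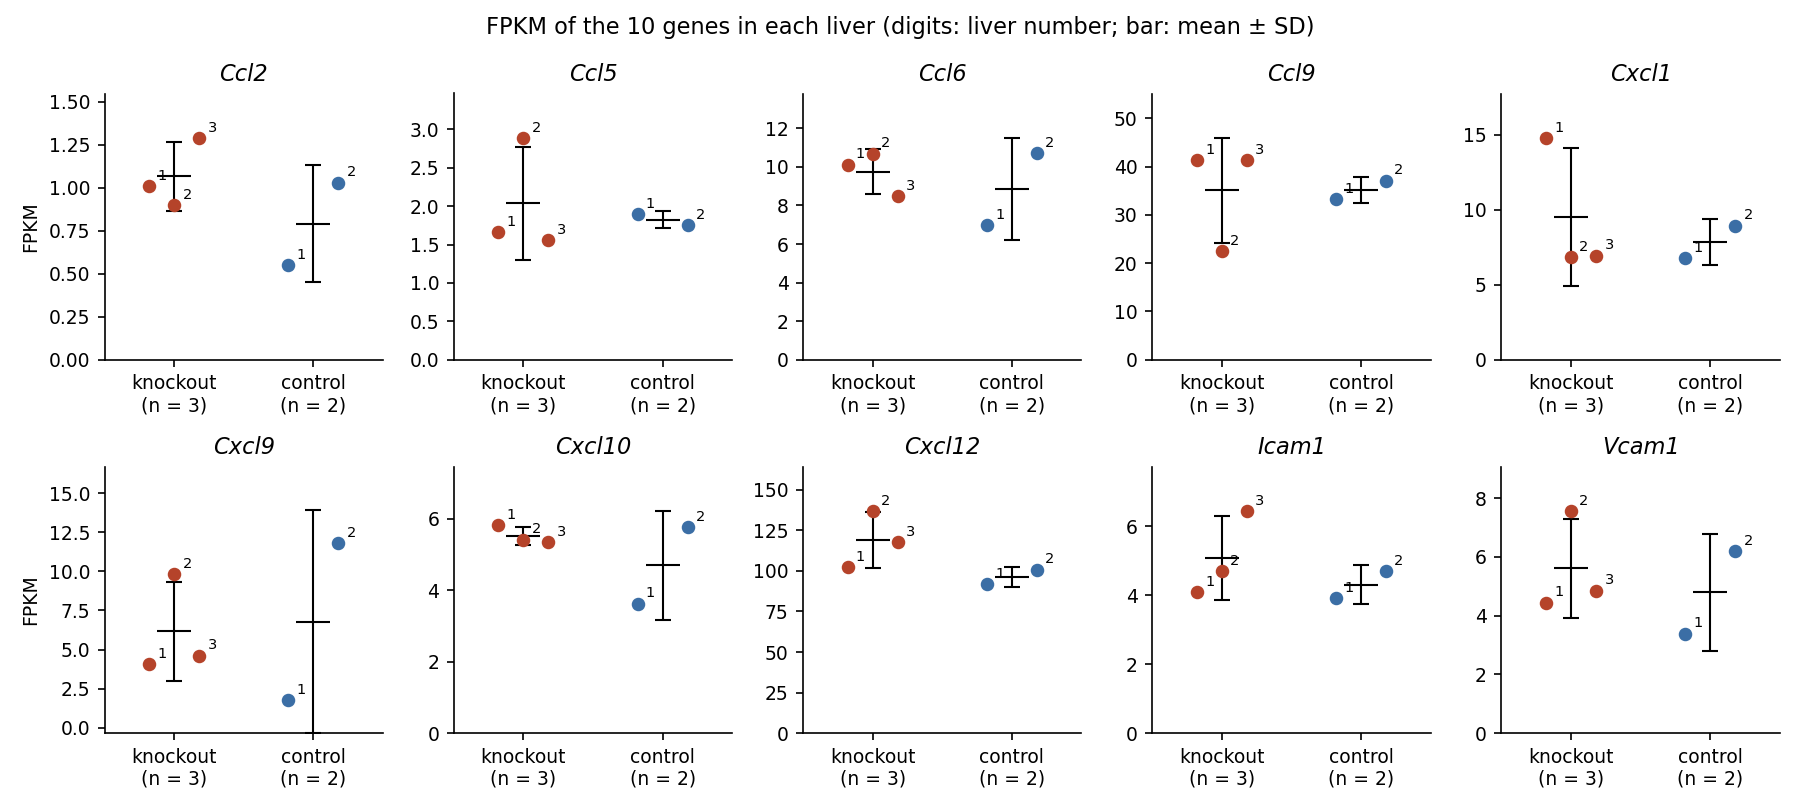
FPKM of the 10 genes (vertical axes, 1 panel a gene) in the 3 knockout livers (red, left) and the 2 control livers (blue, right), with the liver number beside each point and bars for mean ± SD. Without scaling, the groups overlap in every panel but that of Cxcl12, where the knockouts lie between 102.4 and 136.7 FPKM and the controls at 91.8 and 100.8 FPKM.

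Cxcl12 was by far the most abundant of the 10. It encodes the ligand of CXCR4 that holds and attracts haematopoietic cells and lymphocytes and is made without an inflammatory stimulus. Cxcl12 (ENSMUSG00000061353.11, chromosome 6, 117168535 to 117181367, plus strand; all positions on mm10) had 102.4, 136.7 and 117.6 FPKM in the knockout livers and 91.8 and 100.8 FPKM in the control livers. In the deposited FPKM every knockout lay above both controls, although knockout 1 exceeded control 2 by little. The median-of-ratios factors, which measure a library-wide offset, were 1.02, 1.01 and 1.03 in knockouts and 0.960 and 0.986 in controls. The order of knockout 1 and control 2 thus depends on scaling. With that scaling the log2 fold change of Cxcl12 was 0.23. Cxcl12 averaged 118.9 ± 17.2 FPKM in knockouts (SD, n = 3) and 96.3 ± 6.4 FPKM in controls (SD, n = 2). This is a log2 fold change of 0.29 (SE 0.14; 95% interval from -0.04 to 0.63; limma adjusted p = 0.718). The exact two-sided permutation p was 0.2, where the 10 splits of the livers allow no value under 0.1. Without scaling, Cxcl12 was the only one of the 9 members tested with a filter of 1 FPKM whose groups did not overlap. Of all genes tested, 25.3% had groups that did not overlap, 18.9% higher in every knockout and 6.38% lower. In each liver it supplied most of the summed FPKM of the 8 chemokines, between 56.5% and 69.8% in knockouts and 62.6% and 56.7% in controls.

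Cxcl9 had the widest spread of the 10 genes, and the spread was between livers of the same genotype. CXCL9 and CXCL10 are interferon-γ-induced ligands of CXCR3 that attract activated T cells and NK cells. Cxcl9 (ENSMUSG00000029417.9, chromosome 5, 92321347 to 92328079, minus strand) had 4.07, 9.81 and 4.61 FPKM in the knockout livers and 1.76 and 11.8 FPKM in the control livers. The 2 controls were the lowest and the highest of the 5 livers, 6.72-fold apart, and all knockouts lay between them. Cxcl9 averaged 6.16 ± 3.17 FPKM in knockouts (SD, n = 3) and 6.79 ± 7.11 FPKM in controls (SD, n = 2), so that the knockouts were lower by mean FPKM but higher by mean log2. On log2(FPKM + 1), its SD over the 5 livers was 0.89, which only 0.721% of the genes tested exceeded and which compares with a median of 0.16 over all of them. The log2 fold change of Cxcl9 was 0.18 (SE 0.65, 95% interval -1.37 to 1.74, limma adjusted p = 0.955). Its sign hung on single livers, with -0.93 without control 1, 1.29 without control 2 and -0.16 without knockout 2.

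Cxcl10, which lies 18558 bases from Cxcl9 on the same strand, did not share that spread. Cxcl10 (ENSMUSG00000034855.13, chromosome 5, 92346638 to 92348889) had 5.81, 5.41 and 5.34 FPKM in the knockout livers and 3.62 and 5.76 FPKM in the control livers. Of these, only control 1 stood apart, below the other 4 livers. The ratio of Cxcl9 to Cxcl10 FPKM was 0.701, 1.81 and 0.863 in the knockout livers and 0.486 and 2.05 in the control livers, so that Cxcl9 exceeded Cxcl10 in knockout 2 and control 2 alone. The log2 fold change of Cxcl10 was 0.22 (SE 0.18, limma adjusted p = 0.793), and it was -0.053 without control 1. Exons of Cxcl10 overlap those of Art3 on the opposite strand, and reads of the pair cannot be told apart where counting ignores strand.

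The promoters of this neighbouring pair are printed because the genes share inducers and location but not their spread, and that of Cxcl1 because its spread was the next largest. The sequences are the 250 bases before the RefSeq start (GRCm38.p6), written 5′ to 3′ along the gene. Capitals mark matches on either strand to an NF-κB motif and to GAAANNGAA, a short pattern like the interferon-stimulated response element.
Cxcl9, chr5:92328080-92328329, minus strand: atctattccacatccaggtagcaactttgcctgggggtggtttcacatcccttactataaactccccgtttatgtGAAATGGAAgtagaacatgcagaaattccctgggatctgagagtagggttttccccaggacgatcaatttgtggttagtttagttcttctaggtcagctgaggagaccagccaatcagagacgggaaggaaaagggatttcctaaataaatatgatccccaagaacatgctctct
Cxcl10, chr5:92348890-92349139, minus strand: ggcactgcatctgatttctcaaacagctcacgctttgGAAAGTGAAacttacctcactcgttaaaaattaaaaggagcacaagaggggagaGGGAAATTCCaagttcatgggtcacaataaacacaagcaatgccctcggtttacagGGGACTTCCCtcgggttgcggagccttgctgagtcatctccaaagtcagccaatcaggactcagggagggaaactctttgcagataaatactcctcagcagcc
Cxcl1, chr5:90890995-90891244, plus strand: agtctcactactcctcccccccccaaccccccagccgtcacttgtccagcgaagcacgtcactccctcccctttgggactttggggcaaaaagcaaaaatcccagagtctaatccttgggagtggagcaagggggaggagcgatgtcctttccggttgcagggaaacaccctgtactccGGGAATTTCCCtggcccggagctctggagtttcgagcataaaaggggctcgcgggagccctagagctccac

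Cxcl9 held 1 match to GAAANNGAA, GAAATGGAA, beginning 175 bases before the start. Cxcl10 held 1 as well, GAAAGTGAA at 213 bases, and 2 NF-κB matches, GGGAAATTCC at 159 bases and GGGACTTCCC at 103 bases. Cxcl1 held NF-κB matches on both strands that overlap at 71 and 70 bases. Of 32851 promoter windows of 300 bases in the table, which end 50 bases after the start, 4.51% held the NF-κB motif and 8.56% GAAANNGAA. Windows were found for 7 of the 10 members. The NF-κB motif matched in 3 of them (Ccl9, Cxcl1 and Cxcl10) and GAAANNGAA in 2 (Cxcl9 and Cxcl10). These are letter matches, and binding was not measured. Ccl2, Ccl5 and Vcam1 had no entry.

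Cxcl1 stood out in a single liver. CXCL1 is a ligand of CXCR2 that attracts neutrophils. Cxcl1 (ENSMUSG00000029380.11, chromosome 5, 90891241 to 90893115, plus strand) had 14.8, 6.82 and 6.93 FPKM in the knockout livers and 6.78 and 8.93 FPKM in the control livers. Knockout 1 stood above the other 4 livers, and the 2 other knockouts lay between the controls. The log2 fold change was 0.18 (SE 0.32, limma adjusted p = 0.900) and turned to -0.16 without knockout 1. Knockout 1 was also the liver with the highest erythrocyte markers, whose 8 rows summed to 1330, 244 and 141 FPKM in knockouts and 136 and 146 FPKM in controls. The part of blood content in the Cxcl1 value was not tested. Cxcr2, the receptor, had between 0.02 and 0.11 FPKM in knockouts and 0.05 and 0.10 FPKM in controls, below the filter on low values.

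Of the 4 CC chemokines described here, Ccl9 and Ccl6 had the highest levels per length. Both are rodent CC chemokines that act on CCR1-bearing myeloid cells in the mouse, and their genes lie 9245 bases apart on the minus strand of chromosome 11. Ccl9 (ENSMUSG00000019122.8, 83572919 to 83578636) had 41.4, 22.5 and 41.3 FPKM in the knockout livers and 33.3 and 37.1 FPKM in the control livers. Knockout 2 was the lowest of the 5 livers and the other 2 knockouts the highest, so the controls lay inside the range of the knockouts. Ccl6 (ENSMUSG00000018927.3, 83587882 to 83593087) had 10.1, 10.7 and 8.47 FPKM in the knockout livers and 6.98 and 10.7 FPKM in the control livers. For Ccl6 it was control 1 that lay lowest, and the low Ccl9 value of knockout 2 had no counterpart there. The log2 fold changes were -0.055 for Ccl9 (SE 0.27, limma adjusted p = 0.971) and 0.15 for Ccl6 (SE 0.19, limma adjusted p = 0.865).

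Ccl5 and Ccl2 were low in all livers. CCL5 attracts T cells and monocytes, and CCL2 draws monocytes through CCR2. Ccl5 (ENSMUSG00000035042.2, chromosome 11, 83525778 to 83530518, minus strand) had 1.66, 2.89 and 1.56 FPKM in the knockout livers and 1.90 and 1.75 FPKM in the control livers. Knockout 2 was highest, and the other 2 knockouts lay below both controls. Ccl2 (ENSMUSG00000035385.5, chromosome 11, 82035571 to 82037453, plus strand) had 1.01, 0.90 and 1.29 FPKM in the knockout livers and 0.55 and 1.03 FPKM in the control livers. Control 1 was lowest and control 2 lay among the knockouts. The log2 fold changes were 0.078 for Ccl5 (SE 0.21, limma adjusted p = 0.940) and 0.22 for Ccl2 (SE 0.16, limma adjusted p = 0.821). The mean of Ccl2 was below 1 FPKM, so it was fitted among the 14401 genes with a mean of at least 0.1 FPKM, of which 0% passed.

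Both adhesion molecules were present at a few FPKM. ICAM1 binds the β2 integrins LFA-1 and Mac-1, and VCAM1 binds the integrin VLA-4. Icam1 (ENSMUSG00000037405.8, chromosome 9, 21015985 to 21028817, plus strand) had 4.08, 4.69 and 6.43 FPKM in the knockout livers and 3.91 and 4.70 FPKM in the control livers. Knockout 3 stood highest and the other 2 knockouts lay between the controls. Vcam1 (ENSMUSG00000027962.14, chromosome 3, 116109949 to 116129688, minus strand) had 4.44, 7.55 and 4.85 FPKM in the knockout livers and 3.39 and 6.20 FPKM in the control livers. Knockout 2 and control 2 were the 2 highest livers for Vcam1, as they were for Cxcl9, and control 1 the lowest for both. The log2 fold changes were 0.18 for Icam1 (SE 0.19, limma adjusted p = 0.838) and 0.20 for Vcam1 (SE 0.28, limma adjusted p = 0.870), and that of Vcam1 was -0.15 without control 1. Exons of both genes overlap an annotated antisense transcript.

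**Figure D2:**
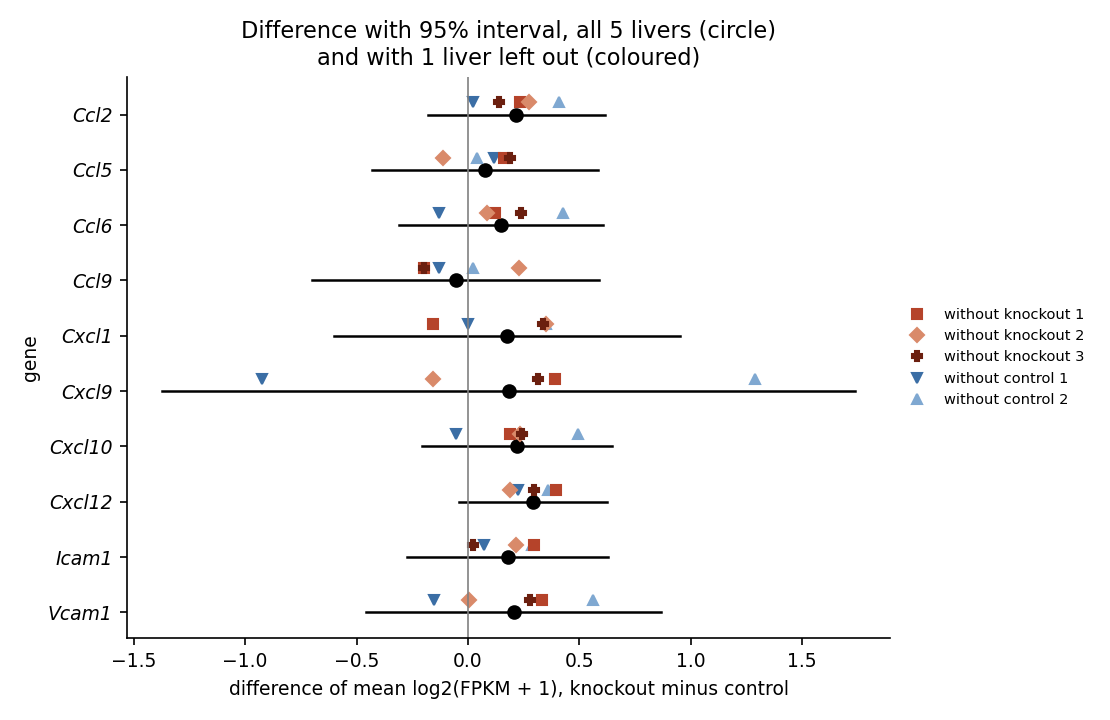
Difference of mean log2(FPKM + 1), knockout minus control (horizontal axis), for each of the 10 genes, with black circles and bars for the value and 95% interval on all 5 livers and coloured marks for the value with 1 liver left out. Every interval crosses 0, and leaving out control 1 moves Cxcl9 to -0.93 while leaving out control 2 moves it to 1.29.

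The 10 genes were mostly higher by mean log2 in the knockouts, and that balance rested on control 1. The mean of log2(FPKM + 1) was higher in knockouts for 9 of 10 (all but Ccl9; by mean FPKM 8 of 10, all but Ccl9 and Cxcl9), beside 64.2% of all genes tested, and the median log2 fold change was 0.18 beside 0.061 for all genes. Control 1 was the lowest of the 5 livers for 8 of the 10, all but Ccl5 and Ccl9, beside 28.1% of all genes tested. Without control 1 the mean log2 was higher for 5 of 10 and the median was -0.026. Without control 2 it was higher for 10 of 10 and the median was 0.39. The 2 controls thus lay further apart than the groups did, with a median level, relative to the mean of the livers, of -0.018, 0.12 and -0.0083 in the knockout livers and -0.30 and 0.090 in the control livers. The highest value fell in knockout 1 for Ccl9, Cxcl1 and Cxcl10, in knockout 2 for Ccl5, Cxcl12 and Vcam1, in knockout 3 for Ccl2 and Icam1, and in control 2 for Ccl6 and Cxcl9.

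**Figure D3:**
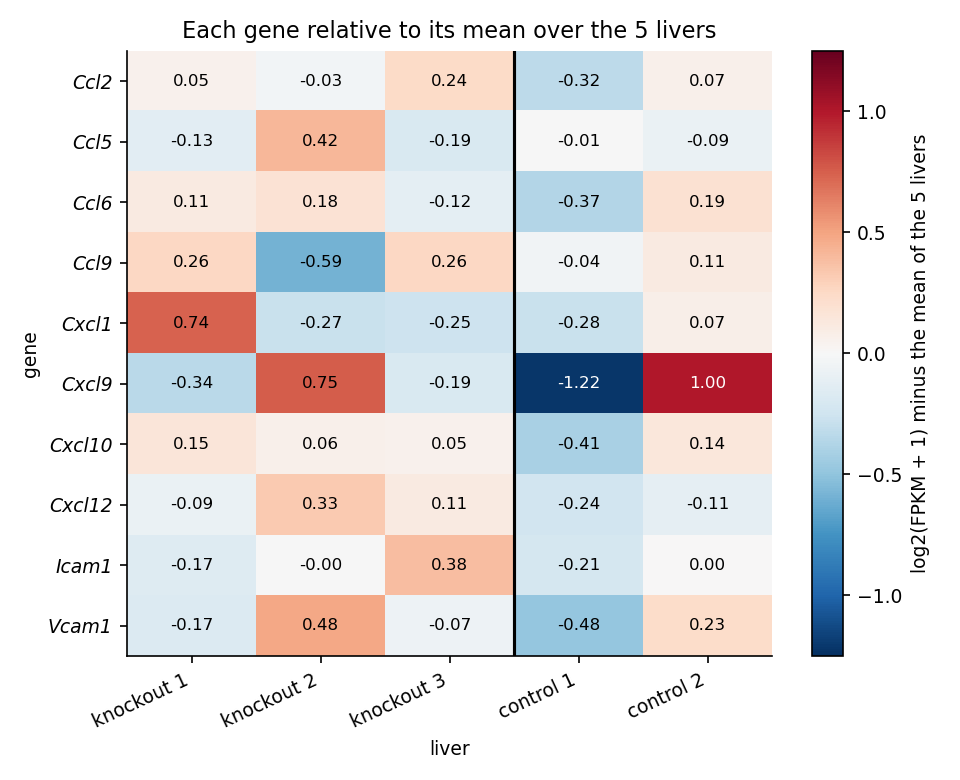
Level of each gene (rows) in each liver (columns, knockouts left of the line and controls right) as log2(FPKM + 1) minus its mean over the 5 livers, with red above and blue below that mean. The column of control 1 is below the mean for all 10 genes, down to -1.22 for Cxcl9, while control 2 and the knockouts hold both signs.

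The summed markers of Kupffer cells were lowest in control 1 as well. All 10 Kupffer markers (Clec4f, Vsig4, Timd4, Cd5l, Marco, Adgre1, Csf1r, Cd163, C1qa and C1qb) were tested, 0 passed, and their sum was 329, 423 and 401 FPKM in the knockout livers and 240 and 400 FPKM in the control livers. Control 1 was lowest for 7 of the 10 markers, beside 28.1% of all genes tested. With all livers the markers were higher in knockouts for 10 of 10, beside 64.2% of all genes. Without control 1 they were higher for 3 of 10. Their part in the chemokine values was not tested. Markers of sinusoidal endothelium, a cell type that expresses Lyve1, did not have this pattern and summed to 198, 148 and 157 FPKM in the knockout livers and 179 and 159 FPKM in the control livers. Of the 10 cholangiocyte markers 4 were tested, all with a higher mean in knockouts, beside 64.2% of all genes, and 0 passed. The groups of 1 of the 4 did not overlap, higher in knockouts, beside 18.9% of all genes. The list summed to 82.6, 77.5 and 88.7 FPKM in the knockout livers and 42.2 and 53.7 FPKM in the control livers, sums that did not overlap. All 10 stellate cell markers were tested, 2 higher and 8 lower in knockouts, beside 64.2% higher of all genes, and 0 passed. Their sum was 187, 245 and 281 FPKM in the knockout livers and 246 and 258 FPKM in the control livers. The part of either in the Cxcl12 value was not tested. Lyve1 itself had 3.90, 7.32 and 10.5 FPKM in the knockout livers and 7.34 and 8.92 FPKM in the control livers.

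Markers of neutrophils, T and NK cells and B cells were mostly under 1 FPKM, while the monocyte and macrophage list was higher. Of the 10 monocyte and macrophage markers 5 were tested, and the list summed to between 56.9 and 90.9 FPKM in knockouts and 46.8 and 67.1 FPKM in controls, mostly from Lyz2. Of the 10 neutrophil markers 2 were tested, S100a8 and S100a9, and the list summed to between 5.72 and 10.9 FPKM in knockouts and 4.32 and 6.91 FPKM in controls, with Ly6g listed at 0 in all livers but knockout 2. None of the 9 T and NK cell markers with a row reached a mean of 1 FPKM, and their sums were 2.76 to 5.79 FPKM in knockouts and 2.17 and 2.97 FPKM in controls. The B cell list summed to 5.44 to 8.69 FPKM in knockouts and 2.86 and 4.98 FPKM in controls, groups that did not overlap, with Ighm (2.88, 5.08 and 2.84 FPKM in knockouts, 1.67 and 2.45 FPKM in controls) the only member tested (limma adjusted p = 0.708). Most receptors of the chemokines were also below 1 FPKM. Of 23 chemokine receptors 3 were tested, 1 higher and 2 lower in knockouts, beside 64.2% higher of all genes, and 0 passed. Ccrl2 had 1.37, 1.06 and 1.60 FPKM in the knockout livers and 1.58 and 1.40 FPKM in the control livers (log2 fold change -0.093, limma adjusted p = 0.894). Ackr2, a scavenger of CC chemokines, had 1.15, 1.43 and 1.02 FPKM in the knockout livers and 0.97 and 1.46 FPKM in the control livers (log2 fold change -0.0052, limma adjusted p = 0.997). Cxcr4 had 0.40, 0.42 and 0.46 FPKM in the knockout livers and 0.41 and 0.52 FPKM in the control livers, far below its ligand Cxcl12.

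The genes whose profile over the 5 livers was nearest to that of Cxcl9 were Saa2, Igkv17-127 and Saa1. Likeness was the root mean square difference of log2(FPKM + 1), centred on each gene's mean over the 5 livers, among 10811 other genes, and it is a description of 5 livers. Saa2, an acute phase protein of hepatocytes, was nearest (0.22), with 56.3, 128 and 52.5 FPKM in the knockout livers and 41.3 and 156 FPKM in the control livers. The immunoglobulin segment Igkv17-127 followed (0.29) and then Saa1 (0.32), with 161, 214 and 105 FPKM in the knockout livers and 83.9 and 278 FPKM in the control livers. In all of them control 1 was lowest, and in both Saa genes control 2 was highest and knockout 2 next. This order follows from picking genes for likeness to Cxcl9 and is no separate observation. Igkv17-127 had 0.45, 2.48 and 0.53 FPKM in knockouts and 0 and 1.57 FPKM in controls. It thus reached the filter of 1 FPKM only through knockout 2 and control 2. Saa1 and Saa2 are near-identical and may share reads. For Cxcl1 the nearest were Gbp10, an interferon-induced GTPase gene of a family with close paralogs (0.095), Plet1os (0.10) and Vsig2 (0.10). Each was highest in knockout 1, which follows from picking genes for likeness to Cxcl1. Plet1os had 1.99, 0.77 and 0.59 FPKM in knockouts and 0.74 and 0.95 FPKM in controls. It thus reached the filter of 1 FPKM only through knockout 1. Within the 10 genes the nearest pair was Ccl6 and Cxcl10 (0.098).

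**Figure D4:**
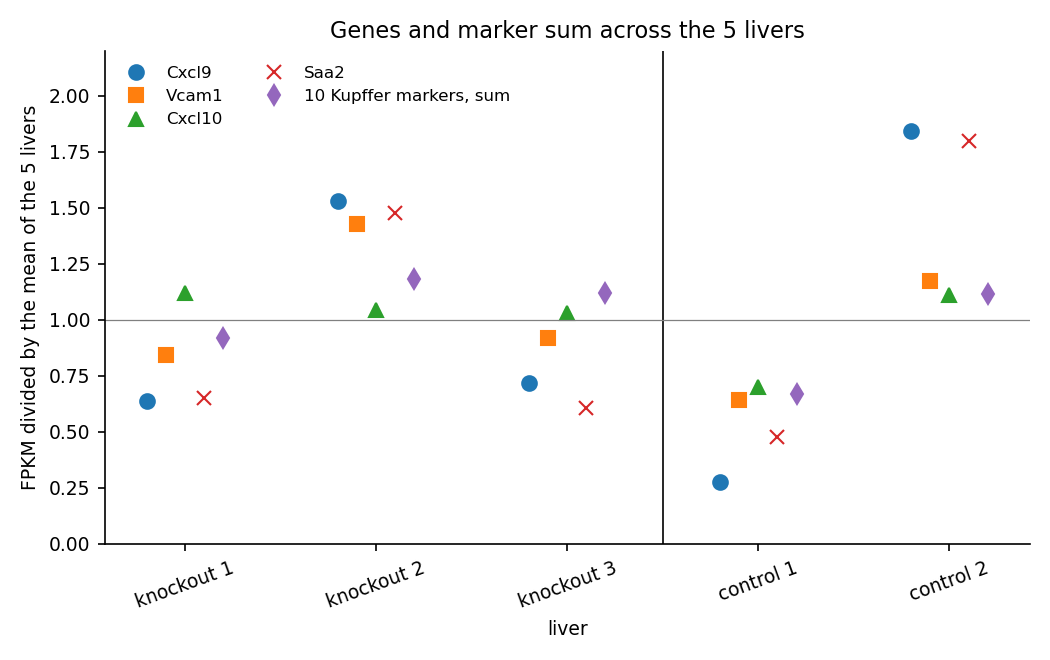
FPKM divided by the mean of the 5 livers (vertical axis) in each liver (horizontal axis, knockouts left of the line and controls right) for Cxcl9, Vcam1, Cxcl10, Saa2 and the sum of 10 Kupffer cell markers. All 5 are lowest in control 1. Cxcl9 and Saa2 reach 1.84 and 1.80 times their mean in control 2, while Cxcl10 stays at 1.11. Saa2 was picked for its likeness to Cxcl9 in these livers, so their shared order is no separate observation.

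Most of the remaining chemokines did not reach a mean of 1 FPKM. The CC chemokine Ccl27a, picked out after its values were seen because it lay above Ccl6, had 14.2, 13.1 and 12.5 FPKM in the knockout livers and 12.6 and 14.1 FPKM in the control livers. Of 29 listed, 28 had a row, 5 were listed at 0 in all livers (Ccl1, Ccl12, Cxcl3, Cxcl15 and Cxcl17), and 9 were tested. Of these 8 were higher and 1 lower in knockouts, beside 64.2% higher of all genes. Their median log2 fold change was 0.24, beside 0.061 for all genes. None passed, and 5 of 9 were higher without control 1. Cxcl14 had 1.43, 3.99 and 2.15 FPKM in the knockout livers and 1.63 and 0.92 FPKM in the control livers. Cxcl13, the B cell attractant, had 0.87, 0.89 and 4.27 FPKM in the knockout livers and 0.31 and 1.0 FPKM in the control livers. Its mean, and with it its place above the filter, rested on knockout 3. Pf4, a platelet chemokine, had 1.28, 2.92 and 0.87 FPKM in the knockout livers and 0.34 and 1.63 FPKM in the control livers. Ccl25 had 4.54, 7.12 and 5.64 FPKM in the knockout livers and 3.86 and 5.60 FPKM in the control livers. The groups overlapped for all 4, with limma adjusted p between 0.731 and 0.812.

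Among other adhesion genes, 4 of the 14 tested were higher in every knockout liver than in either control (Itgal, Selp, Pecam1 and Alcam), beside 18.9% of all genes. All 14 had a higher mean log2 in knockouts, beside 64.2% of all genes, with a median log2 fold change of 0.14, 0 passed (2 at an unadjusted p under 0.05, beside 7% of all genes), and 9 of 14 were higher without control 1 and also with quantile normalization. Itgal, the α chain of LFA-1 and so a partner of ICAM1, had 3.88, 3.82 and 4.93 FPKM in the knockout livers and 2.18 and 3.37 FPKM in the control livers (log2 fold change 0.48, SE 0.18, limma adjusted p = 0.700; 0.25 without control 1). Selp, the P-selectin on which leukocytes roll, had 1.72, 1.68 and 3.10 FPKM in the knockout livers and 1.19 and 1.09 FPKM in the control livers (log2 fold change 0.54, SE 0.22, limma adjusted p = 0.700; 0.34 without knockout 3). Pecam1, a junction protein of endothelial cells, had 9.23, 9.23 and 8.74 FPKM in the knockout livers and 7.46 and 7.87 FPKM in the control livers (limma adjusted p = 0.718). Jam2 overlapped, with 4.48, 3.26 and 2.68 FPKM in the knockout livers and 2.99 and 2.18 FPKM in the control livers. For the other integrin chains that bind ICAM1 and VCAM1 the groups overlapped, with Itgb2 at 3.48, 3.73 and 3.97 FPKM in the knockout livers and 2.11 and 4.05 FPKM in the control livers, and Itgb1 at 37.4, 39.5 and 44.7 FPKM in the knockout livers and 39.4 and 41.1 FPKM in the control livers.

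The pathways that induce these genes were also examined. Of 20 tested genes of NF-κB signalling, 13 were higher and 7 lower in knockouts, with a median log2 fold change of 0.069, and 0 passed (3 at an unadjusted p under 0.05). These shares stand beside 64.2% higher, a median of 0.061 and 7% under that p for all genes, so the direction of the list was that of all genes. Bcl3, a nuclear IκB protein, had 16.7, 17.6 and 16.1 FPKM in the knockout livers and 9.85 and 10.3 FPKM in the control livers (log2 fold change 0.68, SE 0.10, limma adjusted p = 0.587). Nfkbia, the cytoplasmic inhibitor IκBα and itself a target of NF-κB, had 26.0, 28.1 and 23.5 FPKM in the knockout livers and 42.0 and 33.9 FPKM in the control livers (log2 fold change -0.53, SE 0.13, limma adjusted p = 0.689). The groups of both genes did not overlap, one higher and one lower in knockouts. Among the 20 tested, groups did not overlap for 3 higher and 1 lower in knockouts, beside 18.9% and 6.38% of all genes. Nfkbib was higher in every knockout, with 18.1, 20.4 and 16.7 FPKM in knockouts and 14.9 and 14.2 FPKM in controls. So was Nfkbie, with 1.13, 1.41 and 1.42 FPKM in knockouts and 0.74 and 0.89 FPKM in controls. Nfkbie reached the filter of 1 FPKM only through the knockouts, where it was high, so its place among the 3 is no separate support. The cytokines Tnf and Il6 had at most 0.38 and 0.07 FPKM in knockouts and 0.26 and 0.06 FPKM in controls.

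Of 19 tested genes of interferon-γ signalling, 17 were higher and 2 lower in knockouts, with a median log2 fold change of 0.18, and 0 passed (4 at an unadjusted p under 0.05). Over all genes tested, 64.2% were higher in knockouts and 7% were under that p. The groups of 8 of the 19 did not overlap, all higher in knockouts, beside 18.9% of all genes. Without control 1, 12 of 19 were higher. Control 1 was lowest for 13 of the 19, beside 28.1% of all genes tested. With median-of-ratios scaling 15 of 19 were higher in knockouts, and with quantile normalization 14 of 19. Iigp1, an immunity-related GTPase, had 116.8, 127.04 and 126.1 FPKM in the knockout livers and 94.97 and 92.9 FPKM in the control livers (log2 fold change 0.39, SE 0.091, limma adjusted p = 0.675). Jak1, a kinase of the receptor, had 27.4, 26.4 and 28.6 FPKM in the knockout livers and 23.3 and 20.9 FPKM in the control livers. Ifngr2, a receptor chain, had 6.11, 5.30 and 6.35 FPKM in the knockout livers and 4.65 and 4.03 FPKM in the control livers. Psmb9, a subunit of the immunoproteasome, had 18.5, 19.1 and 16.8 FPKM in the knockout livers and 13.1 and 15.7 FPKM in the control livers. For the last 3 the limma adjusted p was 0.700. Iigp1, Jak1 and Ifngr2 were not ordered across the livers as Cxcl9 was, since for these genes control 2 was the lowest liver. Ifng, the cytokine itself, was at or below 0.17 FPKM in knockouts and 0.05 FPKM in controls.

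**Figure D5:**
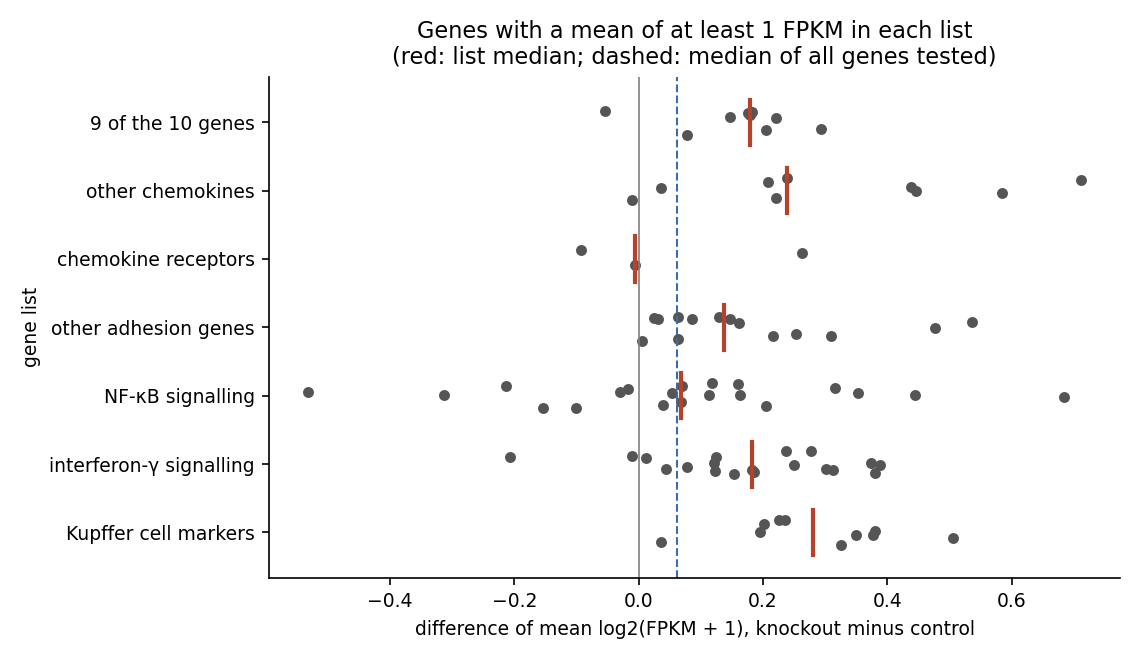
Difference of mean log2(FPKM + 1), knockout minus control (horizontal axis), of each gene with a mean of at least 1 FPKM (points) in 7 lists, with the list median in red and the median of all genes tested, 0.061, dashed. The medians run from -0.0052 for the 3 chemokine receptors to 0.28 for the 10 Kupffer cell markers, and no gene shown passed the test over all genes.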

How the data were processed

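The authors deposited FPKM per gene symbol, rounded to 2 decimals, in 2 tables of 33589 rows with identical values. Per the submitters' processing notes they used HISAT2, StringTie and DESeq2 with mm10. Versions, the annotation and the use of strand are not given in the sources used here. FPKM are not counts and depth is unknown: only between 30.8% and 35.4% of low values of genes with 1 exon lay within 0.1 of a whole multiple of a common step, so reads were not recovered. Reads of close paralogs and of genes that overlap cannot be told apart.

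Groups came from the labels. They do not say whether the libraries came from separate mice, and the errors and p-values given are those of the spread among these libraries, which may be technical. Genes whose mean reached 1 FPKM (10820) were fitted as log2(FPKM + 1) with limma 3.58.1 (R 4.3.3), with genotype as the only term and a trended prior. Tests were two-sided, with Benjamini-Hochberg adjustment over all genes and a threshold of 0.05. A fold change is knockout minus control on that scale and understates changes of low genes. The fit was checked on simulated data. Single genes were also tested by exact permutation over the 10 splits.

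The members and lists were chosen with earlier results of these data known. The genes named are the 10 members, the up to 4 of each further list with the smallest unadjusted p, and the 3 genes nearest to each of the 2 most variable members. Other genes named (the remaining receptors, integrins, cytokines, Ighm, Lyz2, Alcam and Ccl27a) were chosen after their values were seen. Some genes of the lists are not reported here. Positions are from GENCODE M21 (GRCm38, also called mm10), and promoters from RefSeq (GRCm38.p6).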

Additional observations from a re-analysis of the deposited data

How the results depend on the processing

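Alternatives were pseudocounts of 0.1 and 0.5, no filter and filters of 0.1 and 5 FPKM, median-of-ratios scaling, quantile normalization, library weights, a replicate block, and each library left out. No member passed in any of them: over 137 refits of single members the smallest adjusted p was 0.554, and 127 of the 137 kept the sign. Ccl2, Cxcl12 and Icam1 kept it in all of theirs. Cxcl12 stayed between 0.19 and 0.39, but Ccl2 came to 0.021 without control 1 and Icam1 to 0.023 without knockout 3. With quantile normalization Ccl5 was -0.0053. With 1 library left out the log2 fold change ran from -0.11 to 0.19 for Ccl5, -0.13 to 0.43 for Ccl6, -0.20 to 0.23 for Ccl9, -0.16 to 0.35 for Cxcl1, -0.93 to 1.29 for Cxcl9, -0.053 to 0.50 for Cxcl10, -0.15 to 0.56 for Vcam1, -0.041 to 0.93 for Pf4 and -0.17 to 0.16 for Ackr2. Among list genes that kept their sign, it ran from 0.25 to 0.71 for Itgal, 0.34 to 0.64 for Selp, 0.15 to 0.47 for Jam2, 0.19 to 0.44 for Psmb9, 0.30 to 0.82 for Cxcl14, 0.22 to 1.02 for Cxcl13 and 0.018 to 0.46 for Ccl25. The median over the 10 genes ran from -0.026 to 0.39, the number of them higher in knockouts (counted after the values were seen) from 5 to 10, and the number of all genes that passed from 0 to 1. That 1 gene, without control 1, was Hamp (adjusted p = 0.0073), named after its value was seen. Where 1 control is left, it is assumed to vary like the knockouts. The lists could not all be measured: 9 of 28 other chemokines and 3 of 23 receptors reached 1 FPKM.

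The labels number the livers within each group, and nothing says that a number marks a shared litter or batch. The deviations of same-numbered livers from their group means had r across genes of 0.23 for number 1 and 0.20 for number 2. Knockout 3 has no partner. With 2 controls, the deviation of control 1 is that of control 2 with the sign turned, so the 2 values of r are not independent. They cannot show whether a number marks a pair. With the number as a replicate block 5 genes passed, Mup16, Mup9, Mup11, Moxd1 and LOC108167922, named after their values were seen, none of them a member, and Ackr2 was 0.054.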

Other observations

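Of the other chemokines, chemokine receptors and other adhesion genes, 26 had a mean from 0.1 to under 1 FPKM. The groups did not overlap for 5 of the 26, and these 5 are given as values, chosen after they were seen. Ccl7, a monocyte chemokine encoded near Ccl2, had 0.38, 0.29 and 0.26 FPKM in the knockout livers and 0 and 0.16 FPKM in the control livers. Ccr7, the receptor that guides cells to lymph nodes, had 0.21, 0.31 and 0.19 FPKM in the knockout livers and 0.11 and 0.08 FPKM in the control livers. Cxcr3, the receptor of Cxcl9 and Cxcl10, had 0.28, 0.29 and 0.23 FPKM in the knockout livers and 0.19 and 0.15 FPKM in the control livers. Jam3, a junctional adhesion molecule, had 0.37, 0.44 and 0.40 FPKM in the knockout livers and 0.82 and 0.72 FPKM in the control livers. Cd34, 1 of 10 listed markers of endothelium outside the sinusoids, had 0.49, 0.53 and 0.55 FPKM in the knockout livers and 0.83 and 0.73 FPKM in the control livers. Of those 10 markers 7 reached a mean of 1 FPKM and were tested. In knockouts 6 were higher and 1 lower (5 of 7 higher without control 1), beside 64.2% higher of all genes. Their median log2 fold change was 0.18 and 0 passed. The groups of 4 of the 7 did not overlap, all higher in knockouts, beside 18.9% of all genes. Ccl7, Ccr7 and Cxcr3 were higher in every knockout (3 of 26, 11.5%) and Jam3 and Cd34 lower (2 of 26, 7.69%), beside 14.4% and 5.78% of the 3581 genes in that range of levels. None passed in the fit of 14401 genes, where limma adjusted p was between 0.766 and 0.835.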
